A study of Mus musculus with 21 samples.

Results

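Copines are calcium-dependent, phospholipid-binding proteins. A copine carries a pair of C2 domains, which bind membranes when calcium rises, followed by an A domain that binds other proteins. Several copines are made mainly in neurons. Copine-6 is the best known of them in the hippocampus, where it is drawn to the postsynaptic membrane when calcium enters dendritic spines and acts on spine structure through the small GTPase Rac1. Copine-1 and copine-3 are found in most tissues.

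The 9 copine genes that carry the mouse symbols Cpne1 to Cpne9 were followed here, of 64361 genes in the count table. They were picked by symbol, and the family was chosen with its measured values already known, that is, its CPM per library (the count over the library total, scaled to 1000000) in the 4 groups of tissue by genotype. All values and calls of the 9 genes are therefore given as a description and without p-values. A gene is called when its adjusted p in the fit over all genes was under 0.05, and calls are set beside the share of all genes called. Of the 9 genes, 8 passed the filter on low counts in every comparison. Cpne1 did not.

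Bulk RNA of cortex and hippocampus was measured with prime-seq, which reads the 3′ ends of polyadenylated transcripts. GA-Camk2a mice carry a floxed-stop GFP-(GA)175 transgene that Camk2a-Cre switches on in excitatory neurons, so that these cells make poly-GA, a dipeptide repeat protein found in C9orf72 disease. The other group is labelled ctrl, and the labels do not give its alleles. The line was kept on C57BL/6J, and the mice came from a small number of litters and were 30 to 40 weeks old at the humane endpoint. Their sex is not given in the labels. The cortex gave 5 control and 6 GA-Camk2a libraries and the hippocampus 4 control and 6 GA-Camk2a libraries, from 11 mice of which 10 gave both tissues. The study's own description gives the control numbers of the tissues the other way round, and the labels were followed here. Libraries are named by the mouse number in their labels, and each library is 1 mouse. The labels also give a batch. In cortex, batch 2 held only controls 20 and 37 and GA-Camk2a mice 16 and 35. In hippocampus, batch 1 held controls 11 and 37 and GA-Camk2a mice 16, 30 and 34, and batch 2 the rest. Fits in a single batch thus rest on few libraries, and a call missing there shows little.

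Total counts per library were between 1048201 and 5888102, with a median of 1975173. All 5 hippocampus markers rose in control hippocampus against control cortex, with a median log2 difference of 2.36, so the tissue labels matched the markers. The GFP row, the only transgene sequence counted, held 13 counts over the GA-Camk2a libraries and 4 over the control libraries and so did not separate the genotypes. Xist exceeded the Y-linked gene Ddx3y in both libraries of mice 16, 31 and 35, that is 1 control and 2 GA-Camk2a mice, with 22.7 to 97.5 CPM of Xist and 3.30 to 5.39 CPM of Ddx3y. The other 15 libraries held 6.17 to 17.6 CPM of Xist and 16.2 to 46.3 CPM of Ddx3y. No mouse differed between its tissues in this respect. With this class as a further term, no call of a copine changed in the genotype fits of cortex and hippocampus or in the difference between them.

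Marker lists of other cells moved with genotype or stood apart in single libraries. Of 7 excitatory neuron markers, 4 fell in GA-Camk2a cortex and 5 in GA-Camk2a hippocampus. Their summed level was 955 to 1406 CPM in control cortex against 742 to 916 CPM in GA-Camk2a cortex, and 1449 to 1807 CPM in control hippocampus against 735 to 969 CPM in GA-Camk2a hippocampus. All 6 striatum markers fell in GA-Camk2a cortex, where their summed level was 119 to 203 CPM against 345 to 522 CPM in control cortex, with no overlap. Of 6 microglia markers, 4 rose in each tissue, and of 6 astrocyte markers, 4 rose in cortex and 5 in hippocampus. The 3 choroid plexus markers, Ttr, Folr1 and Kcnj13, differed widely between hippocampal dissections. Their summed level was 10812, 32594, 1793 and 24587 CPM in control hippocampus 11, 20, 31 and 37. In the GA-Camk2a hippocampus it was 55350 in mouse 16, 9501 in mouse 23, 49571 in mouse 30, 1953 in mouse 34, 45772 in mouse 35 and 1825 CPM in mouse 41. Cortex libraries held 1581 to 8156 CPM. A single cortex marker, Rorb, stood at 5303, 4414 and 1455 CPM in hippocampus libraries 16, 30 and 11, against 86.6 to 165 CPM in the other 7 hippocampus libraries and 133 to 612 CPM in the cortex libraries. The other 3 cortex markers summed to 67.4 to 74.7 CPM in those 3 libraries and to 72.7 to 90.9 CPM in the other hippocampus libraries, so these libraries were high in Rorb and not in the cortex markers as a list. Of the CA2 neuron markers, Amigo2 (−0.95) and Rgs14 (−0.92) fell in GA-Camk2a hippocampus, 2 of 3, and of the 5 hippocampus markers, Spink8 (−1.57) and Fibcd1 (−1.05) fell there on the log2 scale. None of these lists was at 0 in any group. In bulk tissue, fewer cells of a type and less RNA per cell cannot be told apart.

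**Figure D1:**
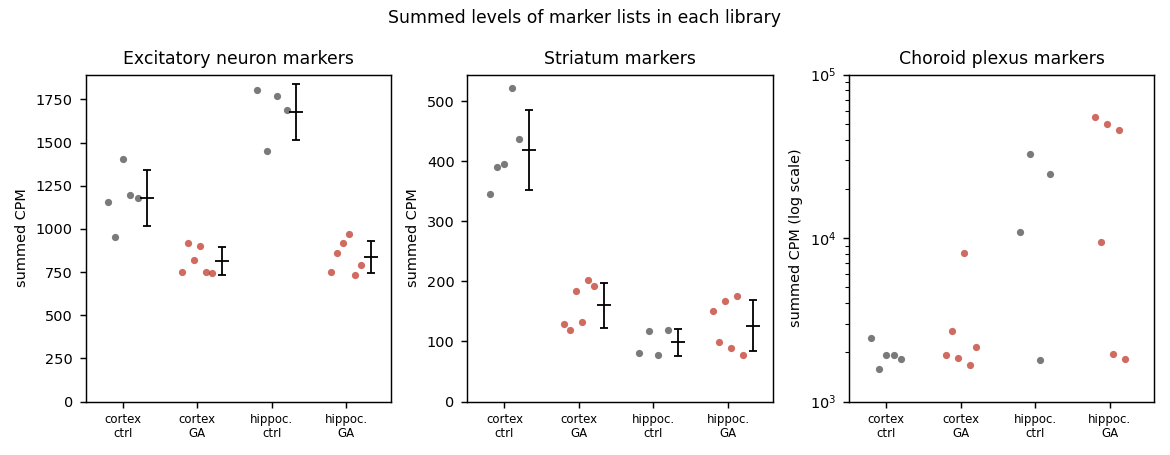
Summed CPM of the excitatory neuron, striatum and choroid plexus markers in each library (points, 1 per mouse) in the 4 groups, with mean ± SD beside the points on the 2 linear panels. The choroid plexus panel has a log axis and no mean. The excitatory neuron sums of GA-Camk2a mice lay below those of controls in both tissues without overlap, striatum sums were lower in GA-Camk2a cortex, and choroid plexus sums in hippocampus ran from 1793 to 55350 CPM.

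Cpne4, Cpne5 and Cpne9 are the copines that were called lower in both tissues of GA-Camk2a mice, and they were singled out after their values were seen. Their promoters are shown because they share that direction in both tissues. RefSeq starts on GRCm38.p6 were found for 6 of the 9 copines (Cpne1, Cpne2, Cpne4, Cpne5, Cpne8 and Cpne9). Printed are the 250 bases before the start, 5′ to 3′ on the strand of the gene, with capitals marking each GC box (GGGCGG, or its complement on the other strand). The windows lie at chr9:104569405-104569654 on the plus strand, chr17:29237791-29238040 on the minus strand and chr6:113282057-113282306 on the plus strand.
Cpne4: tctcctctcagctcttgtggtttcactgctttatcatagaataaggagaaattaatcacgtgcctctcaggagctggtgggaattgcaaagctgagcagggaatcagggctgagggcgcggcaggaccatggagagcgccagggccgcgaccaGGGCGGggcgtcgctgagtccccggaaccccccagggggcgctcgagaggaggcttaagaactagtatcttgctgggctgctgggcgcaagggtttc
Cpne5: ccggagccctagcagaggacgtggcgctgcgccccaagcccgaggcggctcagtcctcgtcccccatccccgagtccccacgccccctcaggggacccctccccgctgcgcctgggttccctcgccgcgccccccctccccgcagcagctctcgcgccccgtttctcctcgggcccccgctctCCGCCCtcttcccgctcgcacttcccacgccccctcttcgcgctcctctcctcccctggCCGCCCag
Cpne9: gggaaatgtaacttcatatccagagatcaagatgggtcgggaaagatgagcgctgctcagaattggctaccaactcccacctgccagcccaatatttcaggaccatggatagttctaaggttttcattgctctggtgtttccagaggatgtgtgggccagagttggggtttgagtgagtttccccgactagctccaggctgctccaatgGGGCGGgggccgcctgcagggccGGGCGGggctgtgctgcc

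The windows were searched on both strands for 7 motifs. The GC box GGGCGG, bound by Sp1-type factors, was present in all 3, and also before Cpne2 and Cpne8, while 32.7% of the 32851 windows of the same length in the table hold it. The cyclic AMP response element TGACGTCA (1.55% of all windows), the neurogenic E-box CAGATG (14.4%), the AP-1 site TGANTCA (6.75%), the Egr site GCGTGGGCG (0.536%) and the TATA box TATAAA (12.4%) matched no window of the 6 copines. The cyclic AMP half-site TGACG, which also lies inside the full element, was found before Cpne1 and Cpne2 and in 17.8% of all windows. GC content was 59.6% before Cpne4, 76.4% before Cpne5 and 56.4% before Cpne9, against a median of 52.4% over all windows. A second RefSeq start of Cpne4, which is in no GENCODE M21 transcript of the gene, had no match to any of the 7 motifs. Such matches describe letters and show no binding.

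On the transcripts compared, reads of 1 copine can hardly be taken for those of another. The longest protein-coding transcript of each copine in GENCODE M21 was used, and its other isoforms were not compared. Over these whole transcripts, at most 1 stretch of 31 bases was shared between any pair of copines, namely between Cpne5 and Cpne6. In the last 400 bases of these transcripts, Cpne2 to Cpne8 shared 0% of such stretches with any other gene and Cpne9 shared 5.95%. Cpne1 shared 100% of them, all with Gm28036, a gene model on the same strand that spans the whole of Cpne1. Cpne1 also overlaps Rbm12 on its strand. Cpne7 lies inside another same-strand model, Gm20388, and Cpne5, Cpne8 and Cpne9 each touch a small gene on the opposite strand. Whether the authors counted by strand is not stated.

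Cpne6 showed the only called difference in genotype effect between the tissues among the copines tested. In control hippocampus it measured 506, 339, 364 and 445 CPM in mice 11, 20, 31 and 37. In GA-Camk2a hippocampus the lowest library held 234, the median was 277 and the highest held 311 CPM. All 6 GA-Camk2a libraries lay under all 4 controls, and the log2 fold change was −0.63 ± 0.07 (SE). Cpne6 was called lower there, together with Cpne4, Cpne5 and Cpne9, so 4 of the 8 copines tested fell in hippocampus, where 5.97% of 14884 genes were called lower. Without the libraries of mice 11, 16 and 30, an alternative chosen after seeing the data that leaves 3 controls and 4 GA-Camk2a mice, 2 copines were called in hippocampus, Cpne4 (−0.59) and Cpne6 (−0.59), and 1005 genes in place of 1628.

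The cortex looked different for Cpne6. Control cortex measured 166, 128, 143, 123 and 204 CPM in mice 11, 20, 31, 37 and 38, and GA-Camk2a cortex ran from 147 over a median of 185 to 206 CPM. The groups overlapped, and the log2 fold change of 0.22 ± 0.10 (SE) was not called, except without control mouse 38, the control with the highest level, where it was 0.33. The hippocampal effect minus the cortical effect was −0.87 ± 0.12 (SE) on the log2 scale. It was called, 1 of 8 copines, where 0.4% of 14751 genes were called in either direction and 0.251% in this direction. Leaving out any 1 library gave −0.95 to −0.75 and always kept the call, as did leaving out the hippocampus libraries of mice 11, 16 and 30 (−0.79).

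The same pattern was visible within single mice. Cpne6 was higher in hippocampus than in cortex by 1.49 ± 0.20 (SD, n = 4) log2 CPM in control mice, with a range of 1.32 to 1.77. In GA-Camk2a mice the step was 0.49 ± 0.27 (SD, n = 6), with a range of 0.12 to 0.88. No GA-Camk2a mouse reached the smallest step of a control mouse. These steps carry no batch term, and the tissues of mice 16, 23, 31, 37 and 41 lay in different batches. Mice 37 and 16, with cortex in batch 2 and hippocampus in batch 1, had the largest steps of their groups. In the reverse order, mice 41 and 23 had the smallest steps (0.12 and 0.26), while mouse 31 (1.40) did not. With batch and mouse as terms, the difference between the effects was −0.95 ± 0.12 (SE). Excitatory neuron markers, 2 of 3 CA2 neuron markers and 2 of 5 hippocampus markers fell in the same hippocampal libraries, and their part in the Cpne6 difference was not tested. With the choroid plexus level as a term, an alternative chosen after seeing the data, the hippocampal value stayed at −0.63.

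**Figure D2:**
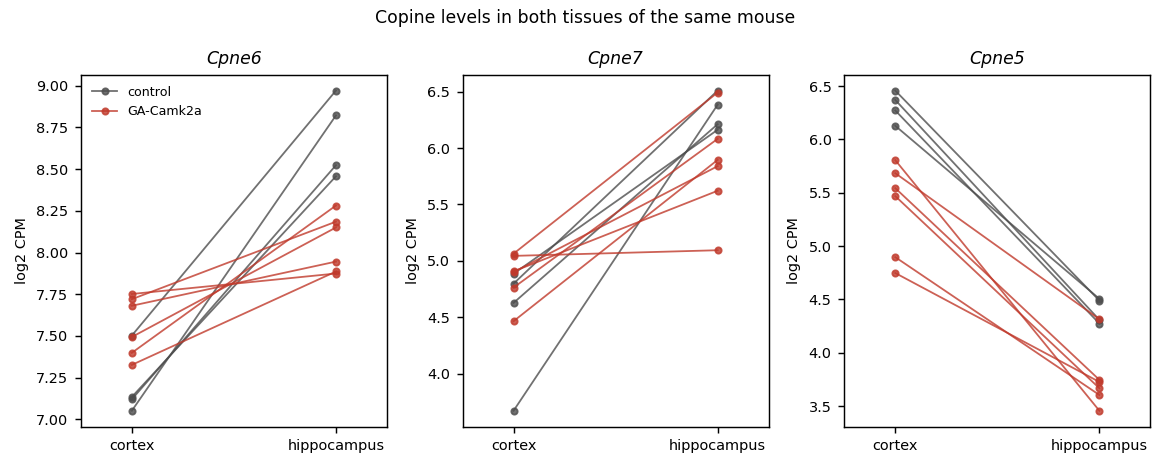
Log2 CPM of Cpne6, Cpne7 and Cpne5 in cortex and hippocampus, with a line for each of the 10 mice that gave both tissues (4 control in grey, 6 GA-Camk2a in red). For Cpne6 the GA-Camk2a lines are flatter, with steps of 0.12 to 0.88 against 1.32 to 1.77 in controls. The steps carry no batch term. Cpne5 falls from cortex to hippocampus in every mouse.

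Cpne7, better known from tooth-forming cells, was the other copine with a strong hippocampal bias. Control hippocampus held 91.3, 80.0, 70.1 and 72.3 CPM and control cortex 24.8, 10.9, 29.7, 22.3 and 25.2 CPM, with a log2 difference of 1.74 ± 0.15 (SE). In GA-Camk2a mice the difference was 1.14 ± 0.15 (SE). GA-Camk2a hippocampus spread from 35.4 over a median of 59.5 to 89.9 CPM, so 1 library reached the control range and 5 of 6 lay below its lowest value. The genotype difference in hippocampus, −0.43 ± 0.16 (SE), was not called. It was called without GA-Camk2a mouse 30, which had the highest level of its group, at −0.56, in batch 2 alone at −0.73, against −0.19 in batch 1, and also with every library kept, at −0.51 with no filter on low counts and −0.44 in 1 fit over all libraries. In cortex it was 0.22 ± 0.15 (SE). The difference between the effects, −0.67 ± 0.23 (SE), was not called.

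Cpne5 had the largest fall toward hippocampus and the largest cortical decline of the 8 copines tested. It measured 75.4, 79.9, 71.4, 71.4 and 74.3 CPM in control cortex of mice 11, 20, 31, 37 and 38. GA-Camk2a cortex held 25.2 in its lowest library, 43.0 at the median and 50.7 CPM in its highest. The groups did not overlap, and the controls were tightly grouped. The log2 fold change was −0.88 ± 0.15 (SE), to 0.542 of the control level. It was −0.88 in batch 1 and −0.89 in batch 2, where it was not called. In cortex, 3 of the 8 copines tested were called, all lower, where 12.5% of 13058 genes were called in either direction, 6.17% lower and 6.35% higher.

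The striatum markers also fell in GA-Camk2a cortex, from 345 to 522 CPM down to 119 to 203 CPM. The gene most like Cpne5 over the 21 libraries was Meis2, a homeobox transcription factor gene (Pearson r = 0.98), followed by Ttc9b (0.97) and Stx1a (0.96), of 11492 genes compared. The libraries share tissue, genotype and batch, so these are descriptions. Striatum marker sums and genotype do not overlap in cortex, so their part in the decline of Cpne5 cannot be told apart from that of genotype. In hippocampus, where 0 of the 3 striatum markers tested were called, Cpne5 measured 19.2, 20.9, 21.7 and 18.2 CPM in controls and 10.0, 12.6 and 20.0 CPM as the lowest, median and highest GA-Camk2a values. One GA-Camk2a library, mouse 34, lay inside the control range. The log2 fold change of −0.63 ± 0.17 (SE) was called, but not without control 11, 20 or 31 or GA-Camk2a 16, 30 or 35, with values from −0.67 to −0.57 then, nor without mice 11, 16 and 30 together (−0.54) or with thinned counts (−0.54). It was −0.44 in batch 1, where it was not called, and −0.87 in batch 2, where it was.

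Cpne4, a neuronal copine also known from retinal ganglion cells, was lower in both tissues. Control cortex held 54.4, 52.7, 41.04, 32.9 and 43.8 CPM, and GA-Camk2a cortex 20.2, 28.5 and 33.8 CPM as the lowest, median and highest. A single GA-Camk2a library reached above the lowest control. The log2 fold change was −0.64 ± 0.15 (SE), with −0.75 in batch 1 and −0.41 in batch 2, where it was not called. In hippocampus the controls measured 81.2, 57.9, 67.8 and 69.5 CPM and the GA-Camk2a libraries ran from 31.2 over 41.1 to 50.0 CPM without overlap. Its log2 fold change there, −0.80 ± 0.12 (SE), was −1.07 in batch 1 and −0.50 in batch 2, where it was not called. No single left-out library removed a call of Cpne4 between genotypes. Excitatory neuron markers fell in the same libraries, 4 of 7 in cortex and 5 of 7 in hippocampus. Their part in the declines of Cpne4 and Cpne5 was not tested.

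Cpne9 had low counts and a similar decline. Control cortex measured 21.9, 19.1, 32.98, 17.2 and 22.4 CPM and GA-Camk2a cortex 12.7, 13.7 and 21.4 CPM as the lowest, median and highest, with overlap. The log2 fold change of −0.59 ± 0.18 (SE) was called but lost its call without control 31 (−0.44), GA-Camk2a 23 (−0.50) or GA-Camk2a 30 (−0.51), with DESeq2 (−0.59), no batch term (−0.57) or thinned counts (−0.41), and in batch 1 (−0.68) and batch 2 (−0.38) alone. In hippocampus the controls measured 14.6, 11.9, 20.5 and 15.5 CPM and the GA-Camk2a libraries 6.38, 9.62 and 11.3 CPM as the lowest, median and highest. These groups did not overlap, and the log2 fold change was −0.75 ± 0.19 (SE). Without control 31 it was −0.66 and without control 37 −0.70, and without mice 11, 16 and 30 together −0.63, and it was then not called. Neither batch alone gave a call, with −0.89 in batch 1 and −0.59 in batch 2. Its counts were 14 to 30 per GA-Camk2a hippocampus library. The part of the excitatory neuron markers, which fell in the same libraries, was not tested.

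Cpne3, a widely expressed copine that binds the receptor ErbB2, was the only copine called higher in GA-Camk2a mice than in controls in the main fits. Control hippocampus measured 14.9, 13.6, 17.7 and 14.4 CPM, and GA-Camk2a hippocampus 19.8, 24.0 and 29.4 CPM as the lowest, median and highest. All 6 GA-Camk2a libraries lay above all 4 controls. The log2 fold change was 0.66 ± 0.14 (SE), with 0.62 in batch 1 and 0.69 in batch 2, neither of which was called alone, and it was not called without mice 11, 16 and 30 together (0.63). Cpne3 was thus 1 of 5 copines called in hippocampus, where 10.9% of genes were called in either direction and 4.97% higher. In cortex the controls held 9.54, 12.7, 13.2, 12.7 and 12.7 CPM and the GA-Camk2a libraries 9.91, 14.4 and 19.0 CPM, and the log2 fold change of 0.25 ± 0.18 (SE) was not called. Astrocyte and microglia markers rose in the same hippocampal libraries, and their part in the Cpne3 rise was not tested.

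**Figure D3:**
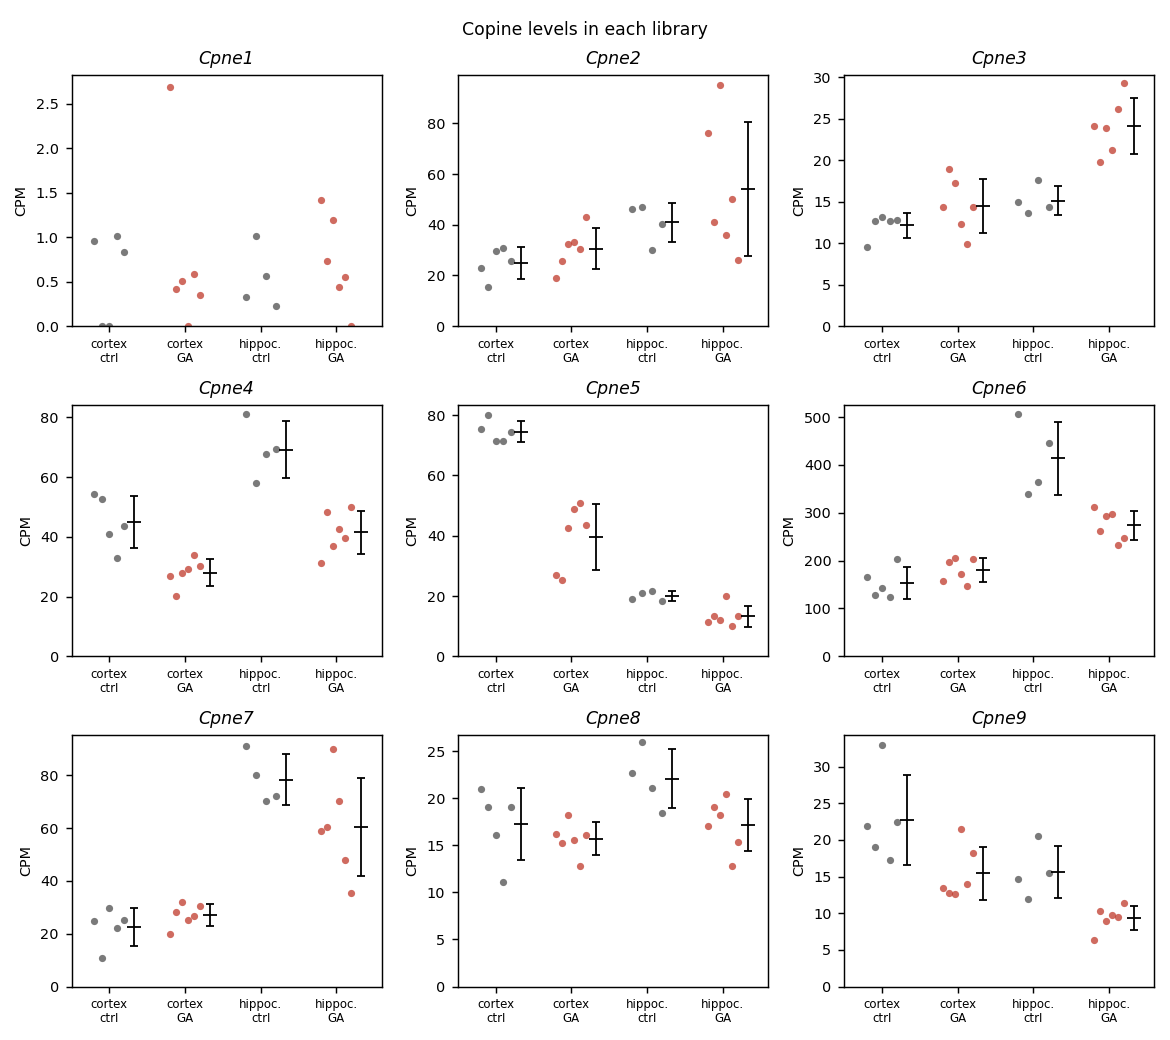
CPM of the 9 copines in each library (points, 1 per mouse) in the 4 groups, with mean ± SD beside the points for all but Cpne1, whose libraries hold 0 to 6 counts. Each panel has its own axis from 0. Cpne5 in cortex and Cpne3, Cpne4, Cpne6 and Cpne9 in hippocampus show no overlap between genotypes. How many of all genes show no such overlap was not counted.

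Cpne2 was not called between genotypes in either tissue. Its spread in GA-Camk2a hippocampus was the widest of the 8 copines tested relative to its mean, 54.1 ± 26.4 (SD, n = 6) CPM, against 40.9 ± 7.74 (SD, n = 4) in controls. GA-Camk2a mice 30 and 16 had 95.3 and 76.2 CPM, mice 35 and 23 had 50.2 and 41.1 CPM, and mice 34 and 41 had 35.9 and 26.0 CPM. Mice 30 and 16 also held 49571 and 55350 CPM of choroid plexus markers, mice 35 and 23 held 45772 and 9501 CPM, and mice 34 and 41 held 1953 and 1825 CPM. Rorb was 4414 and 5303 CPM in mice 30 and 16 and 103 CPM in mouse 35. The genes most like Cpne2 over the 21 libraries, named after their values were seen, were Ace, Trpm3 and Car12 (Pearson r 0.88, 0.88 and 0.87, and 0.80, 0.83 and 0.83 once group and batch means were removed). The part of choroid plexus in the Cpne2 spread was not tested beyond the fit with its level as a term. In controls, mouse 31, with the lowest choroid plexus sum, had the lowest Cpne2 with 30.2 CPM, and mice 11, 20 and 37 had 46.1, 47.0 and 40.3 CPM. The log2 fold change was 0.33 ± 0.26 (SE) and became 0.28 ± 0.14 (SE) with the choroid plexus level as a term, and it was not called either way. Without the hippocampus libraries of mice 11, 16 and 30 it was −0.14 ± 0.21 (SE). Cpne2 was 0.67 in batch 1 and −0.09 in batch 2. In cortex, with 15.4 to 30.9 CPM in controls and 18.9 to 43.0 CPM in GA-Camk2a mice, the log2 fold change was 0.27 ± 0.17 (SE), and it was 0.15 without GA-Camk2a 41, 0.43 without control 37 and 0.04 in batch 2 alone.

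Cpne8 varied least between the groups, with a range of 0.41 between its group means on the log2 scale. Control cortex held 11.1 to 20.99 CPM and GA-Camk2a cortex 12.8 to 18.2 CPM, with a log2 fold change of −0.11 ± 0.17 (SE). Control hippocampus measured 22.7, 26.0, 21.1 and 18.5 CPM against 12.8 to 20.4 CPM in GA-Camk2a hippocampus, with −0.41 ± 0.15 (SE), which was not called. The hippocampal value was −0.18 in batch 1 and −0.70 in batch 2.

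Cpne1 could not be assessed. The counts summed to 6 over the 5 control and 7 over the 6 GA-Camk2a cortex libraries, and to 9 over the 4 control and 11 over the 6 GA-Camk2a hippocampus libraries. The 4 libraries with 0 counts, cortex controls 20 and 31, GA-Camk2a cortex 34 and GA-Camk2a hippocampus 41, allow up to 2.72, 1.10, 1.95 and 2.00 CPM at 3 counts. Since its 3′ end is shared with Gm28036, low counts do not show that the gene is silent.

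Between the tissues of control mice, 6 of the 8 copines were called, where 16.3% of 14435 genes were called, 8.69% higher and 7.6% lower in hippocampus. Higher in hippocampus were Cpne7, Cpne6 (1.42 ± 0.11, SE), Cpne2 (0.66 ± 0.17) and Cpne4 (0.63 ± 0.14), and lower were Cpne5 (−1.96 ± 0.12) and Cpne9 (−0.63 ± 0.19). Cpne5 in control hippocampus was at 0.258 of its cortical level and Cpne6 at 2.68 times its cortical level. Cpne9 lost this call without hippocampus control 11, 20 or 37 or cortex control 20 or 31, with values of −0.64 to −0.50, and with DESeq2 (−0.62) or thinned counts (−0.43). Cpne3 (0.21 ± 0.17) and Cpne8 (0.35 ± 0.19) were not called. Choroid plexus markers were also higher in 3 of the 4 control hippocampi, and Cpne2 was lowest in the fourth. All 6 striatum markers were lower in control hippocampus than in control cortex, with a median log2 difference of −2.82, and their part in the Cpne5 and Cpne9 differences was not tested.

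In GA-Camk2a mice, 7 of the 8 copines were called between tissues, where 33.2% of 13098 genes were called, 17.3% higher and 15.9% lower in hippocampus. Cpne2 (0.84 ± 0.23, SE), Cpne3 (0.64 ± 0.16), Cpne4 (0.41 ± 0.13), Cpne6 (0.57 ± 0.07) and Cpne7 were higher in hippocampus and Cpne5 (−1.66 ± 0.20) and Cpne9 (−0.85 ± 0.19) lower. Cpne2 lost the call without hippocampus 30, at 0.61, and Cpne4 without cortex 16, at 0.36, with no filter on low counts, at 0.41, and with thinned counts, at 0.37. Only Cpne6 differed by the test of the difference itself. For the others a difference in tissue effect between genotypes was not called, which does not show that there was none.

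**Figure D4:**
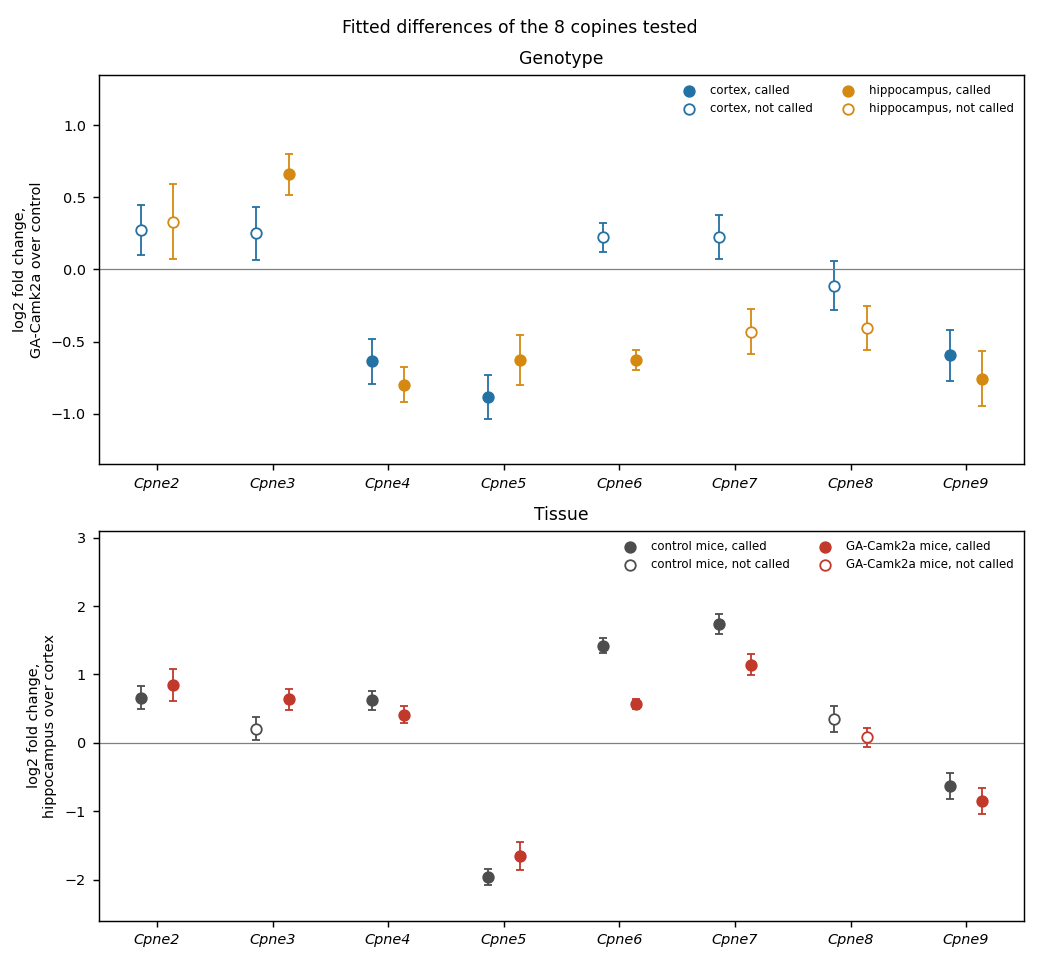
Log2 fold changes ± SE of the 8 copines tested, GA-Camk2a over control in cortex (blue) and hippocampus (orange) above, and hippocampus over cortex in control (grey) and GA-Camk2a mice (red) below. Filled points were called at an adjusted p under 0.05 over all genes and open points were not. Cpne4, Cpne5 and Cpne9 are lower in both tissues of GA-Camk2a mice, and Cpne6 in hippocampus.

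Across the 8 copines the median log2 fold change between genotypes was 0.06 in cortex and −0.53 in hippocampus, beside −0.01 and 0.02 over all genes tested. Members did not move as a block. Over the 21 libraries Cpne6 followed Cpne7 most closely (Pearson r = 0.89), yet the 2 had an r of −0.09 once group and batch means were removed. Cpne5 followed Cpne9 (0.83, and 0.25 after removal) and ran opposite to Cpne3 (−0.82, and −0.57 after removal). Cpne2 and Cpne7 kept 0.64 of 0.75. These correlations share libraries and depth and carry no test.

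Likeness to the other copines of wide range was taken in the same way. Fgd4, a guanine nucleotide exchange factor for Cdc42 (Pearson r = 0.94), the receptor tyrosine kinase gene Kit (0.93) and the cation channel gene Trpc4 (0.93) were closest to Cpne7. Among those closest to Cpne6 were the axon guidance gene Slit1 (0.92) and Cabp7 (0.91), which encodes a calcium-binding protein. Cpne9 was nearest to the synaptic vesicle release gene Cplx1, the kinesin light chain gene Klc2 and the atypical protein kinase C gene Prkcz (0.93 each). All were taken over the 21 libraries and 11492 genes. Once group and batch means were removed, r was 0.76 for Meis2, 0.46 for Ttc9b and 0.30 for Stx1a with Cpne5, and 0.19 for Slit1 and 0.15 for Cabp7 with Cpne6. It was 0.79, 0.67 and 0.58 for Fgd4, Kit and Trpc4 with Cpne7, and 0.78, 0.68 and 0.70 for Cplx1, Klc2 and Prkcz with Cpne9.

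Other genes with C2 domains were listed, many of vesicle release or protein kinase C signalling, and not all of their proteins bind calcium. These genes were called in 1 direction where they were called at all. Of 28 tested, 9 fell and 0 rose in cortex, and 11 fell and 0 rose in hippocampus, with median log2 fold changes of −0.39 and −0.31, where 6.17% and 5.97% of all genes were called lower. Here and below, the lists were chosen with earlier results of these data known. The genes named are called genes with the most extreme fold changes, so their adjusted p-values only describe them. Rims1, an active zone scaffold, fell by 0.95 in cortex (edgeR adjusted p = 1.89e-05). Prkcb, a protein kinase C of neurons, fell by 0.81 in cortex (edgeR adjusted p = 0.00239) and by 1.16 in hippocampus (edgeR adjusted p = 8.00e-05). Doc2b, a sensor for spontaneous release, fell by 0.97 in hippocampus (edgeR adjusted p = 0.00231). In cortex 5 were called lower without control 31 and 1 in batch 2 alone, and in hippocampus 7 with thinned counts and 2 in batch 1 alone. Excitatory neuron markers fell in the same libraries, 4 of 7 in cortex and 5 of 7 in hippocampus, and their part was not tested.

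Annexins bind membranes with calcium through a different fold. Of 8 tested, 4 rose and 0 fell in cortex, and 4 rose and 1 fell in hippocampus, with medians of 0.70 and 0.79. Of all genes, 6.35% were called higher in cortex, and 4.97% were called higher and 5.97% lower in hippocampus. Anxa1, an anti-inflammatory annexin, rose by 1.42 (edgeR adjusted p = 0.000767) and Anxa2, a membrane scaffold, by 0.97 (edgeR adjusted p = 0.000195) in cortex. Anxa4 rose by 1.28 (edgeR adjusted p = 0.0187) and Anxa3 by 0.97 (edgeR adjusted p = 0.00362) in hippocampus, while Anxa11, an annexin of RNA granules, fell by 0.58 (edgeR adjusted p = 0.0267). The Anxa11 call was lost with thinned counts, in either batch alone and without GA-Camk2a 16, control 31 or control 37. In single batches with fewer libraries, 1 was called higher in cortex (batch 2) and 0 in hippocampus (batch 1). Microglia and astrocyte markers rose in the same libraries, and their part was not tested.

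Of the 27 genes for Rac1 and spine actin regulators, the pathway on which copine-6 acts, 5 fell and 0 rose in cortex, and 8 fell and 3 rose in hippocampus, with medians of −0.07 and −0.11. The shares over all genes were 6.17% lower in cortex and 5.97% lower and 4.97% higher in hippocampus. In the same libraries, 4 of 7 excitatory neuron markers fell in cortex and 5 of 7 in hippocampus. The part of these markers was not tested. Kalrn, a Rac1 exchange factor of spines, fell by 0.80 in cortex (edgeR adjusted p = 0.000185) and by 0.61 in hippocampus (edgeR adjusted p = 0.00112). Tiam2, another Rac1 exchange factor, fell by 0.75 in cortex (edgeR adjusted p = 0.00246). In hippocampus Wasf1, which links Rac1 to actin branching, fell by 0.94 (edgeR adjusted p = 2.63e-05). Ntrk2, the BDNF receptor gene, rose by 0.40 (edgeR adjusted p = 0.00678) and Dock1 by 0.44 (edgeR adjusted p = 0.0489) there. These numbers moved with the libraries used. In cortex 3 fell in batch 1 and 1 in batch 2 alone. In hippocampus 5 fell without control 11, 31 or 37, 3 without mice 11, 16 and 30 together, 1 in batch 1 alone and 3 in batch 2 alone. The number that rose there was 1 with DESeq2, with no filter, with thinned counts, with the Xist term and without control 11, 20, 31 or 37 or GA-Camk2a 30, 34, 35 or 41, also without mice 11, 16 and 30 together, and 0 in either batch alone.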

How the data were processed

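Prime-seq libraries of mouse cortex and hippocampus were sequenced by the authors, demultiplexed and counted per gene with zUMIs on GRCm39 (mm39) with an added GFP sequence. What the authors deposited is a table of raw counts, whole numbers with 1 row per gene. The submitters' processing notes also name FastQC 0.11.8, cutadapt 1.12, STAR and DESeq2 1.44. Whether molecules or reads were counted, the annotation release, and the use of introns and strand are not given in the sources used here. If reads were counted, counting limits understate technical error.

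Of 64362 rows, GFP was left out of the library totals and of every test. Symbols from GENCODE M21 (GRCm38), matched by Ensembl number, covered 43308 rows and 96.1% of counts. No gene coordinates are given because the builds differ. Promoter windows come from RefSeq on GRCm38.p6. CPM are counts over the library total scaled to 1000000, not divided by transcript length. All 21 libraries were kept and 0 count columns were unused. Over 46 pairs of replicates, 0 were identical and chi-square per degree of freedom was 2.10 to 15.1. Groups, mouse numbers and batch came from the labels.

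Fits used edgeR 4.0.16 in R 4.3.3 with TMM, filterByExpr (minimum count 10), the quasi-likelihood F-test, batch as a term and Benjamini-Hochberg adjustment over all genes tested. The study used DESeq2. The fits were also run on simulated data, and the outcome is not reported here. Both tissues of a mouse come from the same animal. Their deviations from the group means correlated between −0.19 and 0.30 (median 0.04), so comparisons across tissues were also fitted with mouse as a block. DESeq2 1.42.0, limma 3.58.1, other normalizations and filters, thinned counts, single batches and left-out libraries were alternatives.

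Members and lists were chosen with earlier results of these data known. Named were all members, the called genes of each list and tissue that had the 2 highest and 2 lowest fold changes (genes with a mean log2 CPM under 3 left out), and the 3 genes most like the 4 members of widest range (log2 CPM, prior count 2). One of the genes most like Cpne6 is not reported here.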

Additional observations from a re-analysis of the deposited data

Results flagged for a closer look

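In control cortex, Cpne3 in mouse 11 stood apart from the other controls with 9.54 CPM, from 10 counts, against 12.7 to 13.2 CPM. In GA-Camk2a hippocampus, Cpne5 in mouse 34 stood apart with 20.0 CPM, against 10.0 to 13.3 CPM in the other 5 libraries. Both were found by Dixon's test of the highest and lowest value among 32 groups of values, where chance gives about 1 in 20. The genotype effect on Cpne6 differed between the tissues, with −0.87 on the log2 scale for hippocampus minus cortex in the interaction contrast.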

How the results depend on the processing

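The number of copines called in cortex was 3 and became 0 in batch 2 alone, where 230 genes in place of 1635 were called. In hippocampus it was 5 and became 2 in batch 1 alone, 3 in batch 2 alone, 3 without control 31 and 2 without the libraries of mice 11, 16 and 30, which stood apart in Rorb. Over all genes the number called went from 1628 to 115, 681, 1038 and 1005 in these settings, which use fewer libraries. The other alternatives kept each number of copines called within 1.5 times. The number of all genes called in cortex moved further, to 1038 without control 31 and to 876 in batch 1 alone. With 1 library left out, the numbers were 2 to 4 in cortex, 3 to 5 in hippocampus, 5 to 6 between tissues in control mice, 6 to 7 in GA-Camk2a mice and 1 throughout for the difference between the effects. With mouse as replicate block, 6 copines were called between tissues in control mice, 7 in GA-Camk2a mice and 1 for the difference, where Cpne6 had −0.95, and no call of a copine changed. Over all copine values and alternatives, 885 kept their direction and call or moved by less than the spread, 39 lost a call, 5 gained one, 15 moved further and 0 called values changed sign. Cpne9 in cortex lost its call in 5 of 12 alternatives and Cpne5 in hippocampus in 3 of 14. Cpne6 kept its calls in hippocampus and between tissues in every alternative run. The choroid plexus and Xist terms and the fit without mice 11, 16 and 30 were chosen after seeing the data. With thinned counts, Cpne3 in cortex went from 0.25 to −0.01 and Cpne7 from 0.22 to 0.46, and the difference between the effects went from 0.38 to 0.83 for Cpne3 and from −0.21 to −0.59 for Cpne9. Cpne1, with 0 to 6 counts per library, did not pass the filter.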
